A study of Mus musculus with 24 samples.

Results

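Hunk encodes a serine/threonine kinase of the SNF1-related family, the branch of the kinome that also holds the catalytic subunits of AMPK, the AMP-activated protein kinase. The 10 genes described here are Hunk and 9 of these relatives, Melk, Snrk, Nuak1, Nuak2, Sik1, Mark1, Mark2, Prkaa1 and Prkaa2. They were taken by symbol, with every probe set of the deposited values that the array annotation ties to them. This gave 20 of the 35066 non-control probe sets deposited, for 10 of the 15427 genes with a single-symbol probe set. Any probe sets of the array outside the deposited values were not read. The question put to the data was whether the rise of Hunk after loss of Apc, the brake on Wnt signalling, is shared by its kinase relatives.

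RNA was hybridised to 24 Affymetrix MOE430_2 arrays in 8 groups of 3. Small intestine came from AhCre-positive mice with homozygous floxed Apc (Apcfl/fl) and from AhCre-positive wild-type controls at days 3, 4 and 5 after induction. All of these mice, controls included, received 3 injections of 80 mg/kg beta-naphthoflavone, which switches on Cre from a Cyp1a1 promoter, and they were kept on an outbred background. Colonic tissue came from ApcMin mice, which carry a germline truncating Apc mutation, as polyps pooled from the colon of 1 mouse per array and as normal colon. For 5 of the 6 colonic samples the labels state no treatment of the mouse was given, and for polyp replicate 1 they state nothing. Normal colon therefore also carries the ApcMin allele, and the small intestinal and colonic groups differ in genotype, induction and tissue together.

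The labels name a different mouse for each array, except that Apcfl/fl arrays of day 4 carry numbers only, so that some of these may share an animal and their spread may be technical. At day 4 the wild-type names begin with Ras, and in the colon the polyp and normal samples carry different codes (TH and AC); what these mark is not given and cannot be told apart from the group. The title of normal colon replicate 1 also begins and ends its code differently from the other 5 colonic titles, and without that array the polyp calls of Hunk and of the 8 probe sets of its relatives were kept. The methods of the study call polyp and normal colon paired, whereas the labels name a different mouse for each, so that the colonic arrays were compared without pairs. Values are scaled signals, on which the geometric mean of every array is 100, and differences are log2 values after an offset of 16, which understates changes of dim probe sets. Unscaled array means lay between 69.6 and 176, and arrays of a group correlated at 0.923 to 0.976 over all probe sets. The spread of log2 signals within an array went with genotype at day 4 (SD 2.26 to 2.34 in Apcfl/fl, wild-type 2.00 to 2.18) and day 5 (2.22 to 2.38 in Apcfl/fl, wild-type 1.96 to 2.10). With quantile normalization or the deposited standardized values, which both even out this spread, Hunk, Melk and Prkaa1 kept their calls on every day, while Nuak1 and Mark1 1425509_at lost theirs over the mean of days. Mark1 1449630_s_at lost its day 4 call with both. Prkaa2 1429464_at lost its call over the mean of days with quantile normalization only. Of 8 Wnt feedback genes, 8 were called higher in Apcfl/fl intestine (mean of days, median log2 difference 1.84) and 8 in polyps (median 2.29), against medians of 0.01 and -0.01 over all genes. The summed signal of 7 enterocyte markers was 13955 to 66872 in the small intestine and 1364 to 3833 in the colon, while 5 colonocyte markers summed to 2173 to 3250 in polyps and 18513 to 25042 in normal colon. Of the 5 colonocyte markers, 4 were called lower in polyps. In whole tissue, fewer cells of a type and less RNA per cell cannot be told apart.

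AMPK senses a fall in cellular energy. Its catalytic subunit, alpha 1 (Prkaa1) or alpha 2 (Prkaa2), works in a complex with a beta and a gamma subunit, and the kinase Lkb1 (Stk11) activates it by phosphorylating the activation loop. The same kinase activates most of the relatives, including the NUAK, SIK and MARK kinases and Snrk. The MARK kinases phosphorylate microtubule-associated proteins and act in cell polarity, the SIK kinases hold the CREB coactivators of the Crtc family in the cytoplasm, and Nuak1 and Nuak2 act on myosin phosphatase and cell adhesion. Melk stands apart, since it activates itself and its RNA is known from dividing cells. Hunk was described from mammary tumours and has been linked, in Xenopus, to Dishevelled and Wnt signalling.

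Upstream sequences of the 3 kinases called higher in Apcfl/fl intestine are shown to set their starts side by side. RefSeq starts with such a window were found for 8 of the 10 genes, Nuak2 and Sik1 being the other two. Each window is the 250 bases before a RefSeq transcript start on GRCm38.p6, read on the strand of the gene, with capitals for the GC box GGGCGG on either strand, a motif chosen after the windows had been read. The Hunk gene spans chr16:90385284-90499555, so that this window, at chr16:90386147-90386396 on the plus strand, lies after the first base of the annotated gene. The Melk window is at chr4:44300667-44300916 on the plus strand, for a gene at chr4:44300909-44364675. The Prkaa1 window is at chr15:5143611-5143860 on the plus strand, and the gene follows at chr15:5143861-5181899.
Hunk: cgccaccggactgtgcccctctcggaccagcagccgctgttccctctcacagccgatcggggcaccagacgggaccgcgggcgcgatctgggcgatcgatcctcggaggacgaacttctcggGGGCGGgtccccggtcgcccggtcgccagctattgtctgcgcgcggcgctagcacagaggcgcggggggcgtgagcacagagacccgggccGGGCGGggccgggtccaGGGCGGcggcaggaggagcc
Melk: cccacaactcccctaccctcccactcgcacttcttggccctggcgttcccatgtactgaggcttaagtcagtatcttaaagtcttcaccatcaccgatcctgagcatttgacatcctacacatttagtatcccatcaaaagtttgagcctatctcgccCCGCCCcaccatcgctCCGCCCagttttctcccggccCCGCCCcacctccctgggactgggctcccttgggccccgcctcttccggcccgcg
Prkaa1: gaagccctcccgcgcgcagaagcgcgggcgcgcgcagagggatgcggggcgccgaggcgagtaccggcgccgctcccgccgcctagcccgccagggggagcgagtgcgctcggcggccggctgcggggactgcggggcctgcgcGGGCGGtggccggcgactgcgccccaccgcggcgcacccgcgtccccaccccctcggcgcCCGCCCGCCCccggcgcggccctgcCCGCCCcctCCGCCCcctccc

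The GC box occurred 3 times in the Hunk window, 3 times in that of Melk and 5 times in that of Prkaa1, and at least once in 32.7% of all 32851 windows. Each of the 11 windows of the 8 genes held at least 1 GC box, with 5 in that of Nuak1. The motif is therefore not particular to the 3 kinases called higher. The GC content of the windows was 74.8% for Hunk, 59.6% for Melk and 85.2% for Prkaa1. Neither Hunk, Melk nor Prkaa1 held a TCF/LEF motif (CTTTGAA or CTTTGAT or CTTTGTA or CTTTGTT, both strands) in these 250 bases, and 14.8% of all windows held one. The 11 windows of the 8 genes held 0 such matches. The cell-cycle motif TTTGAA, which overlaps CTTTGAA, was found once, in 1 of the 2 windows of Mark2, and in 16% of all windows. A missing match says only that these letters are not in the window. The study states that the promoter region of Hunk holds a Tcf/LEF site, gives no position for it and calls this evidence circumstantial. The Hunk window read here lies within the annotated gene, and other sequence around Hunk was not searched. The missing match therefore does not bear on a site elsewhere in the promoter region.

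Hunk, read by 1 probe set (1418260_at), rose on each of the 3 days after Apc deletion and in polyps. At day 3 its scaled signal was 345, 603 and 466 in Apcfl/fl intestine, against 132, 119 and 121 in wild-type intestine. At day 4 it was 709, 703 and 584 in Apcfl/fl, against 121, 137 and 124 in wild-type. At day 5 it was 804, 926 and 662 in Apcfl/fl, against 134, 203 and 174 in wild-type. Every Apcfl/fl array lay above every wild-type array, with the lowest Apcfl/fl value (345, day 3) above the highest wild-type value (203, day 5). ApcMin polyps gave 749.7, 648 and 877, against 198, 174 and 215 in normal colon, again without overlap.

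The mean signals of Hunk were 3.80 times as high at day 3, 5.23 times at day 4, 4.67 times at day 5 and 3.88 times in polyps. Fitted log2 differences were 1.77 (95% interval 1.31 to 2.22, adjusted p = 0.000155) at day 3, 2.25 (1.79 to 2.70, adjusted p = 1.24e-05) at day 4, 2.13 (1.68 to 2.58, adjusted p = 7.37e-06) at day 5 and 1.87 (1.37 to 2.36, adjusted p = 0.000563) in polyps. Averaged over the days the difference was 2.05 (1.79 to 2.31, adjusted p = 6.22e-09), and the exact permutation test within days gave p = 0.00025, the smallest it can give. For polyps the exact permutation p was 0.1, also the smallest possible with 3 arrays against 3. Hunk was singled out in the study for its rise after Apc loss, so that its values here are not independent evidence of that direction.

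Ordered by mean signal, Hunk was highest in Apcfl/fl at day 5 (797 ± 132), followed by polyps (758 ± 115), Apcfl/fl at day 4 (665 ± 70.6), Apcfl/fl at day 3 (471 ± 129), normal colon (195 ± 20.4) and wild-type intestine at days 5 (171 ± 34.8), 4 (127 ± 8.23) and 3 (124 ± 6.95; all SD, n = 3). Within Apcfl/fl intestine Hunk was higher at day 5 than at day 3 (log2 0.76, SE 0.22, adjusted p = 0.0262), while the steps between neighbouring days did not pass (0.51, adjusted p = 0.241, and 0.25, adjusted p = 0.622). Of the 20 probe sets, 2 were higher at day 5 than at day 3 in Apcfl/fl intestine, those of Hunk and Prkaa1, and 1 was lower, Mark1 1419834_x_at. Over all probe sets 7.85% were called higher and 6.05% lower in that comparison. The control tissues were 195 in normal colon and 124 to 171 in wild-type intestine, and their difference did not pass (log2 0.45, 95% interval 0.10 to 0.80, adjusted p = 0.0653). Polyps were not tested against Apcfl/fl intestine directly, and their change from normal colon differed from the mean of days by -0.18 (-0.68 to 0.32, adjusted p = 0.651).

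**Figure D1:**
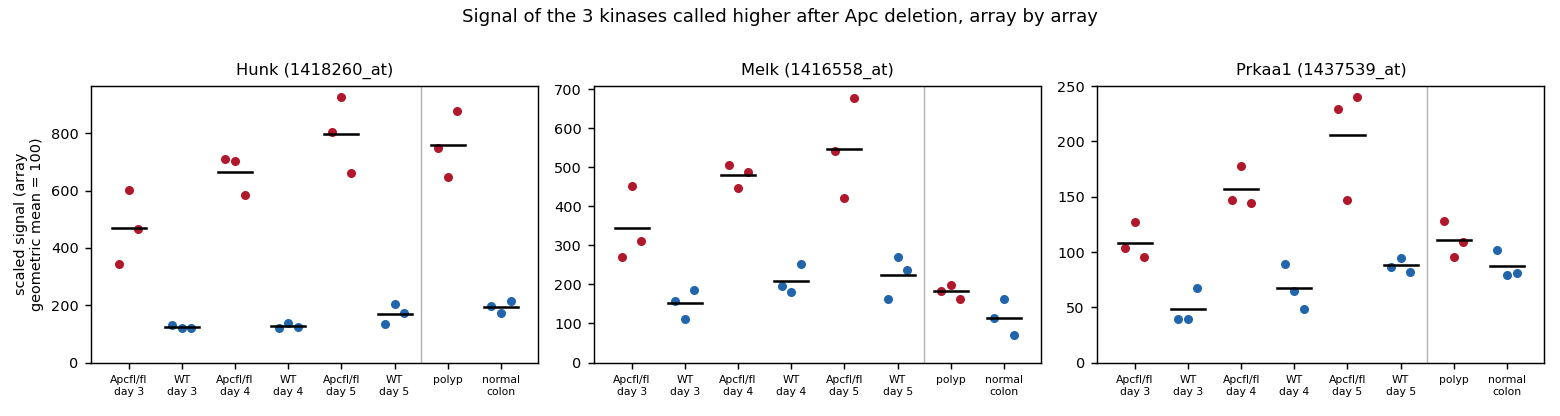
Scaled signal (y axis, geometric mean of each array = 100, linear from 0) of Hunk, Melk and Prkaa1 in each of 24 arrays, by group (x axis; red, Apcfl/fl or polyp; blue, wild-type, WT, or normal colon; black bars, group means). In the small intestine every red point of a day lies above every blue point of that day in all 3 panels, and in polyps the mean of Hunk was 758 against 195 in normal colon while that of Prkaa1 was 111 against 87.1.

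Melk and Prkaa1 were the only 2 of the 9 relatives with a probe set called higher in Apcfl/fl intestine, on each day and over the mean of days. Melk (1416558_at), the kinase of dividing cells, had signals of 270.4, 452 and 311 in Apcfl/fl at day 3, against 158, 110.3 and 186 in wild-type. At day 4 it had 507, 446 and 488 in Apcfl/fl, against 197, 179 and 253 in wild-type. At day 5 it had 543, 421 and 679 in Apcfl/fl, against 163, 271 and 237 in wild-type. The genotypes did not overlap on any day. Log2 differences of Melk were 1.10 (adjusted p = 0.00678), 1.15 (adjusted p = 0.0044) and 1.24 (adjusted p = 0.00146) at days 3, 4 and 5, with a mean of days of 1.16 (95% interval 0.86 to 1.47, adjusted p = 5.43e-06).

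Prkaa1, the alpha 1 catalytic subunit of AMPK, was read by 1437539_at. Its signal at day 3 was 103, 127 and 95.5 in Apcfl/fl, against 39.8, 39.1 and 67.6 in wild-type. Signals at day 4 were 147, 178 and 145 in Apcfl/fl, against 89.3, 64.5 and 48.6 in wild-type. Day 5 gave 229, 147 and 240.4 in Apcfl/fl, against 86.7, 94.9 and 82.3 in wild-type. Here too the genotypes did not overlap on any day, and the wild-type values of day 5 reached almost to the lowest Apcfl/fl value of day 3. The differences were 0.96 (adjusted p = 0.00952), 1.07 (adjusted p = 0.00428) and 1.06 (adjusted p = 0.00251) at days 3, 4 and 5, and 1.03 over the days (95% interval 0.75 to 1.32, adjusted p = 8.44e-06). In Apcfl/fl intestine Prkaa1 was higher at day 5 than at day 3 (log2 0.81, adjusted p = 0.0282), and the same step in wild-type was 0.71 (adjusted p = 0.0983). Fitted on the 6 arrays of day 3 alone, neither relative passed at that day (adjusted p = 0.0522 for Melk and 0.0619 for Prkaa1).

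In polyps neither of the 2 passed. Melk had 184, 199 and 163 in polyps, against 113, 163 and 69.7 in normal colon, groups that did not overlap by a narrow margin (log2 0.65, 95% interval 0.02 to 1.29, adjusted p = 0.158). For Prkaa1 the signals were 128, 95.6 and 109 in polyps, against 101, 79.2 and 80.8 in normal colon, with overlap (0.30, -0.20 to 0.79, adjusted p = 0.414). The polyp difference minus that of the mean of days was -0.51 for Melk (95% interval -1.14 to 0.13, adjusted p = 0.271) and -0.74 for Prkaa1 (-1.27 to -0.20, adjusted p = 0.0554), neither past the threshold.

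The proliferation list moved with Melk. Of its 9 measured genes, 8 were called higher in Apcfl/fl intestine over the mean of days (median log2 difference 1.14; 26.3% of all probe sets were called higher), and in polyps 4 were higher, beside 7.22% of all probe sets, and 1, Foxm1, lower (median 0.68), although the 4 probe sets of Foxm1 ran from -0.89 to 1.94 there. Summed over the list, day 3 signals were 6932 to 9592 in Apcfl/fl arrays, with wild-type arrays at 3386 to 4629. For day 4 the sums were 9412 to 10557 in Apcfl/fl, with wild-type at 4259 to 6121, and for day 5 they were 10140.3 to 12437 in Apcfl/fl, with wild-type at 3852 to 5735. In the colon, sums of 4315 to 5748 in polyps stood against 2012 to 3720 in normal colon. The groups did not overlap on any day or in the colon. The lowest signal of any of these 9 genes was 21.2, for Bub1, so that none was at the floor. The part of dividing cells in the change of Melk was not tested.

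The rise of Hunk was larger than that of either relative. With each probe set's value taken relative to Hunk on the same array, the change of Melk was smaller by 0.67 at day 3 (the fitted difference being -0.67, adjusted p = 0.0341), by 1.10 at day 4 (-1.10, adjusted p = 0.00104) and by 0.89 at day 5 (-0.89, adjusted p = 0.00598). That of Prkaa1 gave -0.81 (adjusted p = 0.0173), -1.17 (adjusted p = 0.000987) and -1.06 (adjusted p = 0.00249). Adjustment over all probe sets changed these p-values little, as for Melk at day 3 (limma, unadjusted p = 0.0324). Over the mean of days all 19 probe sets of the relatives changed by less than Hunk, with differences of -2.61 to -0.89. The same was called for 99.5% of all probe sets, so that the count is not particular to the relatives. Hunk was singled out in the study for its rise. The differences and p-values of Melk and Prkaa1 against it are therefore not independent evidence that Hunk rose more. In polyps 17 of the 19 were below Hunk, as were 95.7% of all probe sets, and the exceptions were Mark1 1425511_at (0.38, 95% interval -0.41 to 1.17) and Mark1 1449630_s_at (-0.53, -1.12 to 0.05). Probe sets can follow RNA with different steepness, which a difference of log2 changes does not remove.

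**Figure D2:**
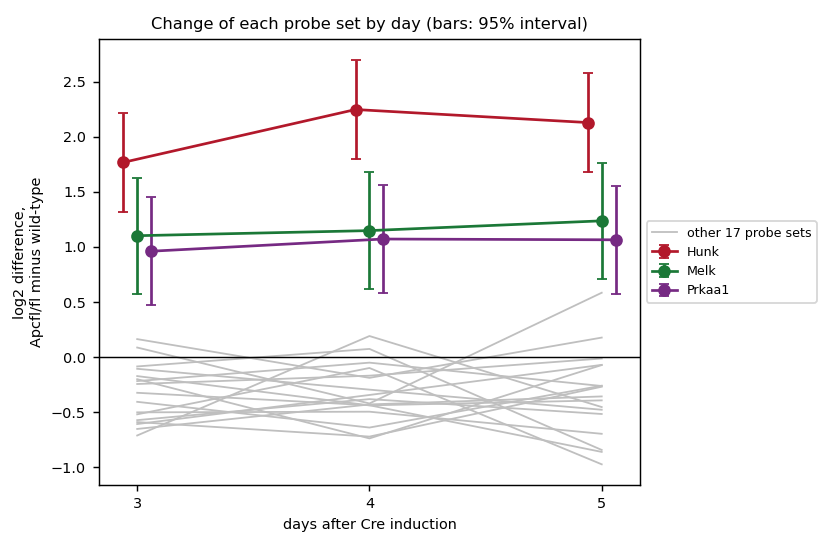
Log2 difference between Apcfl/fl and wild-type small intestine (y axis) at days 3, 4 and 5 after Cre induction (x axis) for Hunk (red), Melk (green) and Prkaa1 (purple), with 95% intervals as bars, and for the other 17 probe sets (grey lines, no interval drawn). Hunk runs at 1.77 to 2.25, Melk and Prkaa1 at 0.96 to 1.24, and most grey lines lie below 0.

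Counted by probe set, 2 of the 19 of the relatives were called higher at day 3, 2 at day 4, 2 at day 5 and 2 over the mean of days, with Melk and Prkaa1 making up each count. Over all probe sets 9.71% were called higher at day 3, 12.5% at day 4, 18% at day 5 and 26.3% over the mean of days. Called lower were 1 probe set at day 3, 1 at day 4, 2 at day 5 and 8 over the mean of days, beside 7.36%, 8.66%, 11.5% and 22.7% of all probe sets. Over the mean of days, 15 of the 19 differences were below 0, with a median of -0.33 beside 0.00 over all probe sets. Over the mean of days the higher calls were a smaller share of the 19 than of all probe sets and the lower calls a larger one, whereas on each single day the lower calls were a smaller share. These shares describe the probe sets and are no test. The Apc effect did not differ between days for any of the 20 (limma, 0 called in each of 3 comparisons). At an unadjusted p under 0.05 there were 0 between days 4 and 3, 2 between days 5 and 4 (Mark2 1415953_s_at and Prkaa2 1434766_at) and 0 between days 5 and 3. Such differences were rare over all probe sets, at 0.0114% higher and 0.0171% lower for day 4 minus day 3, 0.0114% and 0.00856% for day 5 minus day 4, and 0.519% and 0.18% for day 5 minus day 3.

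The relatives with a probe set called lower over the mean of days were Snrk, Nuak1, Mark1, Mark2 and Prkaa2. Their differences were small, -0.33 to -0.56, and most did not pass on a single day. Immune markers fell with them, 5 of 5 over the mean of days (median -0.61), with sums of 1647 to 2365 at day 3, 1532 to 1852 at day 4 and 1391 to 2141 at day 5 in Apcfl/fl, against 2553 to 3725, then 2204 to 2544, then 2828 to 3264 in wild-type. Of 5 enteric nerve and glia markers, Gfap and Elavl4 fell (list median -0.40), with sums of 186 to 209.8, then 157 to 189, then 158 to 168 in Apcfl/fl, against 263 to 352, then 208 to 256, then 237 to 271 in wild-type. The genotypes did not overlap in either sum on any day. The lowest single values were 6.31 (Cd79a) and 1.41 (Tubb3). Called lower as well were 2 of 6 fibroblast, 1 of 6 endothelial, 3 of 5 colonocyte and 2 of 7 enterocyte markers. Of smooth muscle and pan-epithelial markers, 0 of 6 in each list were called lower. Over all probe sets 22.7% were called lower over the mean of days. The part of any of these cells in the lower calls was not tested.

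Snrk encodes a sucrose non-fermenting-related kinase studied in heart and vessels. Its probe set 1425678_a_at was at 138, 116 and 177 at day 3, 127, 151 and 193 at day 4 and 131.1, 123 and 155 at day 5 in Apcfl/fl, against 229, 194 and 233, then 232, 186 and 205, then 201, 224 and 180.5 in wild-type. The genotypes overlapped at day 4 only, and the mean of days was -0.49 (95% interval -0.73 to -0.25, adjusted p = 0.00202). The second Snrk probe set, 1448864_at, gave -0.29 (adjusted p = 0.217).

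Among the MARK kinases, Mark2 had 3 probe sets. In 1415953_s_at the signals at day 5 were 172, 259 and 137 in Apcfl/fl, against 428, 353 and 350.1 in wild-type, without overlap. That difference (-0.97, adjusted p = 0.0119) was lost without Apcfl/fl replicate 3 or without wild-type replicate 1 of that day (highest adjusted p = 0.0627), and the mean of days was -0.53 (adjusted p = 0.00927). Mark2 1415952_at and 1435889_at gave -0.18 (adjusted p = 0.335) and -0.28 (adjusted p = 0.303). The last varied widely between mice of a group, with 175, 566 and 179 in Apcfl/fl at day 5 and 249, 909 and 501 in wild-type at day 3.

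Nuak2 and Sik1 were not called in any Apc comparison. Nuak2 (1429049_at) ran from 292 to 1268 over the arrays and gave -0.14 over the days (95% interval -0.43 to 0.15) and -0.41 in polyps (-1.01 to 0.19, adjusted p = 0.342). It was lower in normal colon than in wild-type intestine (log2 -0.81, adjusted p = 0.00578). Sik1 1419766_at ran from 26.1 to 147 over the 24 arrays and gave -0.34 over the days (95% interval -0.68 to 0.00, adjusted p = 0.0907). In polyps it was at 121, 147 and 125, against 68.2, 97.9 and 95.3 in normal colon, a difference of 0.52 that did not pass (adjusted p = 0.157). The other Sik1 probe set, 1459601_at, was below the offset of 16 on 23 of 24 arrays and carries little information on the gene.

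**Figure D3:**
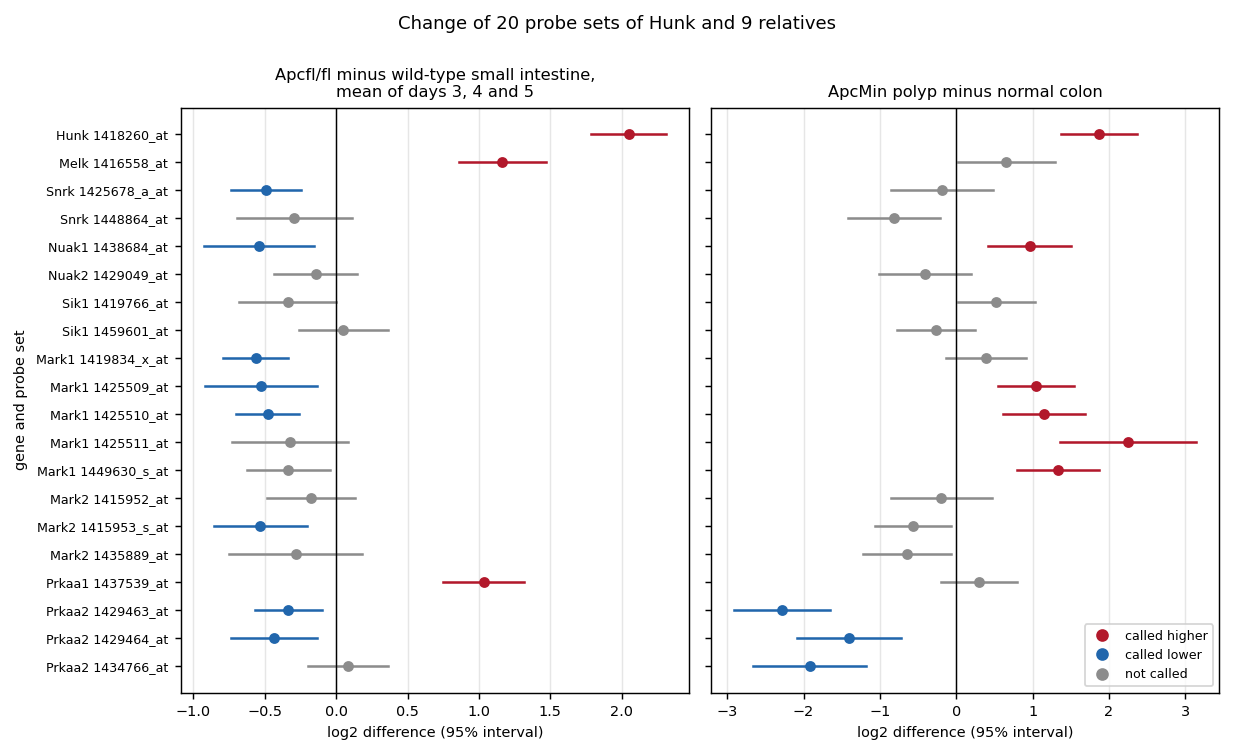
Log2 difference (x axis, points, with 95% intervals as lines) for all 20 probe sets of the 10 genes (rows), for Apcfl/fl minus wild-type small intestine over the mean of days 3, 4 and 5 (left) and ApcMin polyp minus normal colon (right, on a wider axis). Red marks probe sets called higher, blue called lower and grey not called. On the left 3 are red and 8 blue, and on the right 6 are red and 3 blue.

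Polyps differed from Apcfl/fl intestine in which relatives moved. Of the 19 probe sets 5 were called higher, 1 of Nuak1 and 4 of Mark1, and 3 were called lower, all those of Prkaa2. Over all probe sets 7.22% were called higher and 7.24% lower in polyps. Probe sets that were not called, such as that of Melk, could also lie apart from normal colon without overlap. A lack of overlap in polyps thus does not set the called probe sets apart, and its share over all probe sets is not given here. Against the mean of days, the polyp change was higher for 6 probe sets (Nuak1 and all 5 of Mark1) and lower for 3 (all of Prkaa2), where 6.43% and 8.91% of all probe sets were called. That difference was tested in 1 fit over the 24 arrays, in which tissue, kind of Apc lesion and induction change together. Its values follow the account of each gene.

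Nuak1 is at chr10:84370900-84440668. Its probe set 1438684_at had 191, 165 and 256 in polyps, against 101, 79.2 and 109 in normal colon. In the small intestine it had 61.0, 58.5 and 95.3 at day 3, 39.7, 76.6 and 32.1 at day 4 and 63.2, 9.57 and 46.7 at day 5 in Apcfl/fl, against 101, 87.7 and 86.6, then 71.4, 67.0 and 68.7, then 81.6, 76.0 and 68.5 in wild-type. Thus the 3 polyps were above all 21 other arrays, and the Apcfl/fl values were spread widely, with 1 array at 9.57. The polyp difference was 0.96 (95% interval 0.42 to 1.50, adjusted p = 0.0264) and the mean of days -0.54 (-0.93 to -0.15, adjusted p = 0.0215), and the polyp change minus that of the mean of days was 1.50 (SE 0.35, adjusted p = 0.00552). The call in polyps was lost without polyp replicate 1 or 3 or normal colon replicate 2 or 3, or with an offset of 1 (highest adjusted p = 0.0947). The call over the days was lost under quantile normalization and with the standardized values (highest adjusted p = 0.0623).

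Mark1 is at chr1:184896424-184999954 and has 5 probe sets, of which 4 rose in polyps. Mark1 1449630_s_at was at 153, 122 and 193 in polyps, against 50.4, 60.9 and 43.6 in normal colon (log2 1.33, adjusted p = 0.00532). Mark1 1425510_at had 87.4, 70.8 and 106 in polyps, against 41.1, 25.1 and 27.4 in normal colon (1.14, adjusted p = 0.0117). Mark1 1425509_at had 78.8, 62.3 and 90.9 in polyps, against 33.3, 26.3 and 27.4 in normal colon (1.04, adjusted p = 0.0126; 0.0564 without polyp replicate 1). Polyps and normal colon did not overlap in any of the 3.

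The remaining Mark1 probe sets differed more in size. In 1425511_at, polyps were at 126, 93.4 and 144 and normal colon at 3.45, 4.10 and 43.3, of which the first 2 are under the offset (log2 2.25, 95% interval 1.35 to 3.14, adjusted p = 0.00507). That value ran from 1.22 with an offset of 64 to 3.97 with the standardized values, where it did not pass (adjusted p = 0.0577). The brightest, 1419834_x_at, had 349, 345 and 398 in polyps, against 342, 220.5 and 270.5 in normal colon, and did not pass (0.39, adjusted p = 0.304). An x in the name of a probe set marks probes that can bind other transcripts. Over the 24 arrays, the 5 probe sets correlated with each other at r = 0.66 to 0.86, as a description of arrays that share their groups.

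In Apcfl/fl intestine all 5 Mark1 probe sets had differences below 0 over the mean of days, and 3 were called lower. Mark1 1425510_at had 15.6, 17.4 and 15.2 at day 3, 10.3, 16.3 and 9.42 at day 4 and 8.74, 17.5 and 13.6 at day 5 in Apcfl/fl, against 37.1, 35.8 and 30.5, then 24.9, 20.5 and 19.4, then 19.9, 25.8 and 18.4 in wild-type. The genotypes did not overlap on any day, although many Apcfl/fl values were near or under the offset (mean of days -0.48, adjusted p = 0.00107). In 1419834_x_at the day 5 signals were 107, 133 and 96.2 in Apcfl/fl, against 210.3, 181 and 178 in wild-type (-0.70, adjusted p = 0.0106; mean of days -0.56, adjusted p = 0.000388). For 1425509_at the mean of days was -0.53 (adjusted p = 0.0251), a call lost without any 1 of 4 arrays (Apcfl/fl replicate 1 of day 4 or 3 of day 5, wild-type replicate 2 of day 4 or 1 of day 5) and under quantile normalization, an offset of 64 or the standardized values (highest adjusted p = 0.0849). Single-day calls were Mark1 1425510_at at day 3 (-0.65, adjusted p = 0.0201, lost without Apcfl/fl replicate 3 or wild-type replicate 2 of that day, with array weights or on the 6 arrays of day 3) and 1449630_s_at at day 4 (-0.74, adjusted p = 0.0359, lost without Apcfl/fl replicate 1 or 3 or wild-type replicate 2 or 3 of that day, and under 4 other settings).

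The polyp change of Mark1 exceeded that of the mean of days in each probe set, by 0.95 (1419834_x_at, adjusted p = 0.00536), 1.57 (1425509_at, adjusted p = 0.00341), 1.62 (1425510_at, adjusted p = 2.07e-05), 2.57 (1425511_at, adjusted p = 0.000323) and 1.67 (1449630_s_at, adjusted p = 0.000197). Between normal colon and wild-type intestine no Mark1 probe set passed (log2 0.03 to 0.43, lowest adjusted p = 0.116). Of 6 fibroblast markers, Col1a1 (log2 1.89) and Pdgfra (0.85) were called higher and Lum (-1.34) lower in polyps. Their summed signal was 8228 to 15995 in polyps and 5984 to 8907 in normal colon, with the lowest single value at 126, for Lum in a polyp. Of 6 endothelial markers, Vwf (1.00) and Cdh5 (0.84) were called higher in polyps, with sums of 728 to 917 in polyps and 564 to 690.03 in normal colon, which did not overlap. The part of such cells in the changes of Nuak1 and Mark1 was not tested.

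Prkaa2, the alpha 2 catalytic subunit of AMPK, fell in polyps in all 3 probe sets. It is at chr4:105029649-105109898. The signals of 1429463_at were 123, 179 and 258 in polyps, against 848, 1112 and 869.6 in normal colon. Those of 1434766_at were 86.4, 183 and 159 in polyps, against 385, 799.8 and 582 in normal colon. The dim 1429464_at gave 10.4, 9.91 and 33.6 in polyps, against 49.9, 82.9 and 81.1 in normal colon. None of the 3 overlapped, and the log2 differences were -2.29 (95% interval -2.91 to -1.66, adjusted p = 0.000661), -1.92 (-2.66 to -1.18, adjusted p = 0.00416) and -1.41 (-2.09 to -0.73, adjusted p = 0.0134). The last was lost without polyp replicate 1 or normal colon replicate 2 or 3, or with the standardized values (highest adjusted p = 0.0636).

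Smooth muscle markers fell with Prkaa2 in polyps. All 6 were called lower there, with a median log2 difference of -3.83 and a range of -4.79 (Des) to -1.66 (Acta2), and their summed signal was 1765 to 4073 in polyps and 11745 to 16842 in normal colon. None was at the floor, the lowest value in polyps being 10.4, for Des. Over the mean of days 0 of the 6 were called in Apcfl/fl intestine. There the sums of single arrays reached 1264 to 9011 in Apcfl/fl, against 1688 to 7981 in wild-type. Prkaa2 1429463_at was at 217 to 353 in Apcfl/fl, against 318 to 423 in wild-type. For 1434766_at the range was 193 to 385 in Apcfl/fl, against 144 to 342 in wild-type. For the dim 1429464_at it was 8.60 to 52.5, against 31.7 to 44.8. Normal colon, the group with the highest Prkaa2, was also the group with the highest muscle sums and the highest colonocyte sums. The colonocyte sums were 18513 to 25042 in normal colon and 2173 to 3250 in polyps. The part of muscle cells or of colonocytes in the fall of Prkaa2 in polyps was not tested.

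In the small intestine Prkaa2 changed little. Over the mean of days 1429463_at gave -0.33 (adjusted p = 0.0191), 1429464_at -0.43 (adjusted p = 0.0178; -0.20, adjusted p = 0.0828, under quantile normalization) and 1434766_at 0.08 (adjusted p = 0.623). At day 5 the first had 239.7, 341 and 217 in Apcfl/fl, against 329, 346 and 370.1 in wild-type, with overlap. At the same day 1434766_at had 385, 379 and 245 in Apcfl/fl, against 186, 276 and 192 in wild-type, so that these 2 probe sets went opposite ways at day 5. Over the 24 arrays the 3 probe sets did correlate with each other (r = 0.71 to 0.82). The polyp change minus that of the mean of days was -1.95 (1429463_at, adjusted p = 1.3e-05), -0.97 (1429464_at, adjusted p = 0.039) and -2.01 (1434766_at, adjusted p = 0.00013). Prkaa2 was higher in normal colon than in wild-type intestine in all 3 probe sets (log2 1.30, 0.67 and 1.21, highest adjusted p = 0.0348). In that comparison of control tissues 3 of the 20 probe sets were called higher, those of Prkaa2, and 2 lower, Melk (-0.71, adjusted p = 0.0224) and Nuak2, beside 11% and 9.57% of all probe sets.

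**Figure D4:**
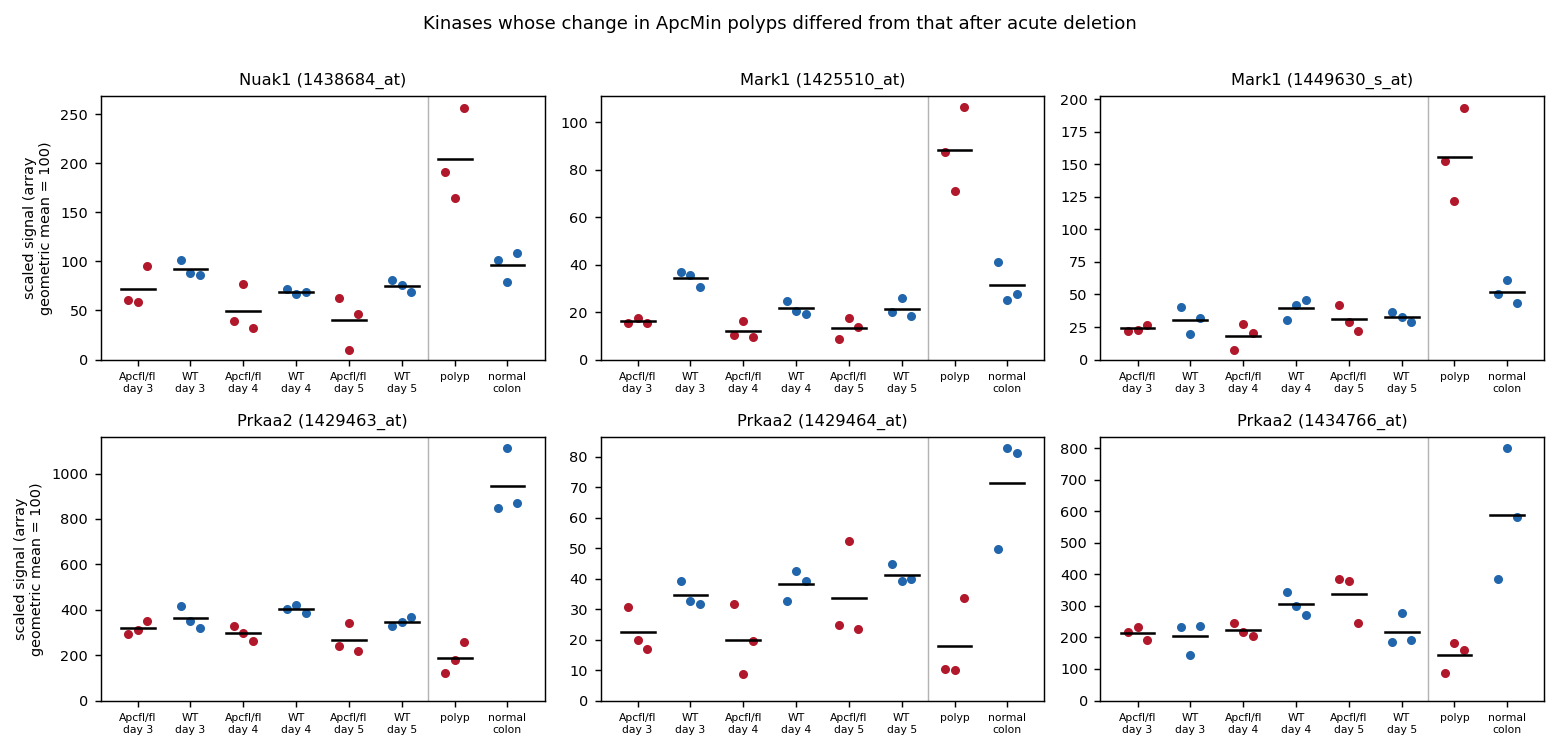
Scaled signal (y axis, linear from 0, geometric mean of each array = 100) in each array by group (x axis; red, Apcfl/fl or polyp; blue, wild-type, WT, or normal colon; black bars, group means) for Nuak1, 2 probe sets of Mark1 and the 3 of Prkaa2. Polyps stand above all other groups for Nuak1 and Mark1, and normal colon stands above all other groups for Prkaa2 1429463_at (mean 943 against 187 in polyps).

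Other pathway genes were read by list, each gene by its brightest probe set, and the counts stand beside 26.3% of all probe sets called higher and 22.7% called lower over the mean of days. Of 5 further members of the family, Mark3 (mean of days 0.64, adjusted p = 0.00036) and Sik2 (0.50, adjusted p = 0.00584) rose and Brsk2 (-0.90, adjusted p = 0.000173) and Mark4 (-0.66, adjusted p = 0.00538) fell in Apcfl/fl intestine, Sik3 was not called (0.24, adjusted p = 0.122), and 0 of 5 were called in polyps (limma; 1 higher at an unadjusted p under 0.05). Mark3 averaged 612 ± 97.2 in Apcfl/fl and 352 ± 23.8 in wild-type at day 5 (SD, n = 3 each), and Brsk2 29.8 ± 17.1 in Apcfl/fl and 61.6 ± 6.56 in wild-type. The 3 probe sets of Sik2 went both ways (-0.66 to 0.50). Of the 4 measured AMPK beta and gamma subunits, 1 rose, Prkab1 (0.33, adjusted p = 0.0359), a share near that of all probe sets, and 0 of 4 passed in polyps (0 at an unadjusted p under 0.05). The day 3 mean of Prkab1 was 378 in Apcfl/fl and 411 in wild-type, and the gene passed only at day 5.

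Upstream of the family, 3 of 7 genes rose over the mean of days, where 26.3% of all probe sets did. Stk11, the Lkb1 kinase, gave 0.41 (adjusted p = 0.00322), its scaffold partner Cab39 gave 0.42 (adjusted p = 0.0133) and Map3k7, the Tak1 kinase, gave 0.50 (adjusted p = 0.00381, its 5 probe sets at -0.10 to 0.50). In polyps 0 of the 7 passed (1 higher and 2 lower at an unadjusted p under 0.05). Among 12 substrates and effectors, Acaca (0.54, adjusted p = 0.00182) and Acacb (0.38, adjusted p = 0.0152), the acetyl-CoA carboxylases that AMPK phosphorylates, and Crtc1 (0.51, adjusted p = 0.00128) were higher over the days, with the 3 probe sets of Crtc1 at -0.67 to 0.51. These 3 of 12 are a share near the 26.3% of all probe sets. At day 3 the means of Acaca were 239.7 in Apcfl/fl and 268 in wild-type and those of Acacb were 30.4 in Apcfl/fl and 33.6 in wild-type, so that the positive difference came from days 4 and 5. Ppp1r12a, the myosin phosphatase subunit bound by the NUAK kinases, was lower in polyps (-0.76, adjusted p = 0.0375).

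Of 6 genes whose products have been tied to Hunk, 4 rose and 1 fell in Apcfl/fl intestine, beside 26.3% and 22.7% of all probe sets over the mean of days. Nedd4, a ubiquitin ligase, was called higher in Apcfl/fl (mean of days 1.26, adjusted p = 1.31e-05) and in polyps (1.21, adjusted p = 0.031), at 2424 ± 521 in polyps and 1079.8 ± 408 in normal colon (SD, n = 3 each). Synpo, the actin-binding synaptopodin, was lower in Apcfl/fl (-1.31, adjusted p = 3.16e-05) and in polyps (-1.64, adjusted p = 0.00844). At day 5 it averaged 103 ± 39.2 in Apcfl/fl and 515 ± 102 in wild-type (SD, n = 3 each). Rabep1 (0.44), Dvl1 (0.42) and Cfl1 (0.30) rose over the days and were not called in polyps. Dvl1 averaged 694 in Apcfl/fl and 846 in wild-type at day 3 and was above wild-type at days 4 and 5 only. Over all genes the median difference was 0.01 over the mean of days and -0.01 in polyps, beside list medians of 0.36 and 0.28 for these 6 genes.

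By likeness over the 24 arrays, the 5 of 15427 genes whose log2 values followed Hunk most closely were Klhdc2 (Pearson r = 0.97), Sox4 (0.96), Sinhcaf (0.96), Afap1l1 (0.96) and Cd44 (0.96). Prkaa1 stood at rank 563 (r = 0.82) and Melk at rank 2374 (r = 0.63), and the other 7 relatives had r of -0.55 to -0.05. For Melk the closest were Rfc4 (0.97), Trip13 (0.96), Exosc8 (0.96), Fam185a (0.96) and Supv3l1 (0.96). Each of these genes had differences above 0 at days 3, 4 and 5 and in polyps, from 0.41 for Supv3l1 in polyps to 2.63 for Afap1l1 at day 5. These correlations describe 24 arrays that fall into 8 groups and share array, scaling and genotype, and carry no test.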

How the data were processed

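RNA of 24 mouse tissue samples was hybridised to MOE430_2 arrays. The authors deposited 1 value per probe set and array, a unitless score: the file headers name a global geometric mean, and from the values each array holds standardized log signals (mean near 0, SD near 1). The summarisation software was not given in the sources used here. Both deposited tables agreed in 842640 of 842640 cells, and 0 columns of per-sample values were left unmapped.

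Because signals were in steps of 0.1 from a floor of 1, the linear signal could be recovered (100% of values under 500 fell on whole steps, tolerance 0.1 of a step). After leaving out 44 control probe sets, each array was scaled to a geometric mean of 100 over 35066 probe sets and log2(signal + 16) was taken. Of these probe sets 28153 have 1 gene symbol, 769 several and 6144 none. The platform annotation gave the symbols, and coordinates are those of RefSeq on GRCm38.p6.

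Groups came from the sample labels. The 18 small intestinal arrays were fitted together with limma 3.58.1 in R 4.3.3, the 6 colonic arrays on their own, and all 24 for the polyp change minus that of the mean of days and for normal colon against wild-type intestine. Changes relative to Hunk were fitted the same way on each probe set's log2 value minus that of Hunk. P-values were two-sided and adjusted by Benjamini-Hochberg over all probe sets tested, with a threshold of 0.05. They set each difference against the spread between arrays of a group, which may be technical for Apcfl/fl at day 4. Exact permutation tests were two-sided. The fitting script was tested on simulated data. The number of arrays, 3 per group, limits the precision.

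All probe sets of the 10 genes in the deposited values are named. Of other family and pathway genes, those past the threshold over the mean of days or in polyps are named, up to 4 per list and direction, as are the 5 genes most like Hunk and most like Melk. The members and lists were chosen with earlier results of these data known. Alternatives were median or quantile scaling, offsets of 1 and 64, the deposited standardized values, dim probe sets left out (lowest 30%), other sets of arrays in the fit, array weights, trended and robust variances, and leaving out each array.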

Additional observations from a re-analysis of the deposited data

Results flagged for a closer look

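For 9 probe sets of 3 genes, the change in ApcMin polyps (against normal colon) differed from that in Apcfl/fl intestine (against wild-type, mean of days) by limma's test of the difference itself. Polyps had the higher change for Nuak1 (difference 1.50 on the log2 scale) and for all 5 probe sets of Mark1 (0.95, 1.57, 1.62, 2.57 and 1.67). The change in polyps was the lower one for the 3 probe sets of Prkaa2 (-1.95, -0.97 and -2.01). All 9 kept their direction in each alternative run, and the call of 8 was kept in each; for Prkaa2 1429464_at it was lost in 10 of 32 alternatives, with adjusted p up to 0.144. Small intestine and colon, acute and germline loss of Apc, and induced and uninduced mice differ together here and cannot be told apart. Groups of 3 are too small to single out an array as lying far from its group.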

How the results depend on the processing

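Hunk kept its call and direction on each day, over the mean of days and in polyps in every alternative run (15 to 28 per comparison), with log2 differences of 1.48 to 1.97 at day 3, 1.93 to 2.37 at day 4, 1.81 to 2.25 at day 5, 1.76 to 2.16 over the days and 1.66 to 2.05 in polyps. Melk and Prkaa1 kept theirs except at day 3 on the 6 arrays of that day, where 0 of the 19 probe sets of the relatives were called higher (2 otherwise). Higher calls over all 35066 probe sets were 1104 in that run and 3404 in the main run. Counts of lower calls on single days were unsteady. At day 3 (1) there were 3 with quantile normalization, 3 with an offset of 64, 3 with the standardized values, 2 with trended and robust variances, 0 with array weights and 0 on the 6 arrays of the day. At day 4 (1) there were 2 with quantile normalization, 2 with an offset of 1, 2 with the standardized values, 3 on the 6 arrays of the day, 6 with array weights and 0 with trended and robust variances. At day 5 (2) there were 6 with quantile normalization, 4 with the standardized values and 4 without dim probe sets. Over the mean of days (8) there were 5 without dim probe sets. In polyps (3) there were 6 with quantile normalization and 6 with array weights. Lower calls over all probe sets moved with these in some settings only. At day 3 (2580) they went to 714 on the 6 arrays and 1073 with array weights. With array weights they went to 5469 at day 4 (3037) and to 6501 in polyps (2539). In other settings they fell while the count of the relatives rose. With the standardized values they were 2179 at day 3 and 2865 at day 4, and with an offset of 1 they were 2703 at day 4. Without dim probe sets, where fewer were tested, they were 3458 at day 5 (4033). At day 5 the split of all calls, 6311 higher and 4033 lower, was 4182 and 4096 with the standardized values, and at day 3, 3404 and 2580, it was 4080 and 1973 with median scaling.

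With each array left out in turn, lower calls ran from 0 to 3 at day 3, from 0 to 2 at day 4, from 1 to 4 at day 5 and from 2 to 5 in polyps, and higher calls in polyps from 3 to 5. Among single probe sets, Nuak1 lost its polyp call in 5 of 15 alternatives, Prkaa2 1429464_at in 4 of 14, and Mark1 1449630_s_at its day 4 call in 8 of 27; no call reversed. The cause of these differences was not tested. No paired analysis was possible because the labels number only the Apcfl/fl arrays of day 4 and name a different mouse for each colonic array, although the methods of the study call polyps and normal colon paired. Signals near the offset limit Sik1 1459601_at and Mark1 1425511_at.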
